A study of Homo sapiens with 18 samples.

Results

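KBTBD8 was knocked down in pluripotent H1 human embryonic stem cells, and the comparison rests on 5 of the study's 18 arrays. The knockdown cells, named shKBTBD8 in the labels, carried a lentivirus with an shRNA against KBTBD8 and are represented by replicates 1 and 3. The controls, named shcontrol, carried a lentivirus with a control shRNA and are represented by replicates 1 to 3. Untransduced H1 cells were a further group of 3 arrays. All of these cells were grown feeder-free in mTeSR1 medium on Matrigel, and all belong to a single line, H1. The remaining arrays held the same 3 treatments in embryoid bodies (EB6), aggregates of these cells formed in AggreWell plates and kept in APEL medium for 6 days. How many shRNA sequences were used, and how long after transduction RNA was taken, is not given in the sources used here. Arrays were chosen by their titles, without use of measured values, except for replicate 2 of the KBTBD8 shRNA, which did not lie with its label.

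KBTBD8 belongs to the BTB-Kelch proteins, which bind the scaffold CUL3 with the BTB domain and a substrate with the Kelch repeats, so that CUL3 and its partner RBX1 can attach ubiquitin to that substrate. In embryonic stem cells KBTBD8 is known for the ubiquitylation of TCOF1 and NOLC1, which work with RNA polymerase I in the nucleolus, and for its part in the formation of the neural crest. The study's title places the ubiquitin ligase in the control of ribosome function and cell fate. Several results concern the integrated stress response, in which phosphorylation of the initiation factor eIF2α lowers general protein synthesis and favours the translation of ATF4, a transcription factor that switches on genes for amino acid supply and the factor CHOP, encoded by DDIT3.

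RNA was labelled and hybridised to Human Gene 1.0 ST arrays, and the values are the authors' GCRMA intensities, read here as log2. A difference of 1 is therefore a factor of 2. Of 18417 genes with a probe set of their own, 14373 passed a filter on low values and were tested with limma over 16 arrays. On the 5 arrays compared, the filter value lay between 5.38 and 5.54, and the array medians lay between 5.97 and 6.08. The words rose and fell are kept for genes whose p, adjusted over all genes tested, was under 0.05. In these bulk samples, fewer cells of a type and less RNA per cell cannot be told apart.

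Both arrays numbered 2 of the KBTBD8 shRNA resembled the other state. The array labelled hESC shKBTBD8 replicate 2 correlated at 0.91 with the other arrays of its label and at 0.99 with the EB6 shKBTBD8 arrays. The array labelled EB6 shKBTBD8 replicate 2 correlated at 0.916 with the other arrays of its label and at 0.993 with the pluripotent shKBTBD8 arrays. On the first, the mean level of 31 pluripotency genes was 7.67 and that of 23 neural plate and forebrain genes was 8.11. On the second, the means were 8.82 and 5.92. The other shKBTBD8 arrays gave 8.84 and 8.89 for the pluripotency genes in pluripotent cells, and 7.70 and 7.78 in embryoid bodies. Both arrays were left out of the fit, so that shKBTBD8 has 2 arrays in each state. Values of the array labelled EB6 shKBTBD8 replicate 2 are given beside some results as a check. A fit with that array in place of the missing one is given for part of the genes and lists.

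The 5 arrays compared all carried the pluripotency genes at pluripotent levels, 8.84 to 8.89 with shKBTBD8 and 8.84 to 8.92 with shcontrol. SOX2, a core factor of this state, measured 10.56 and 10.45 with shKBTBD8, against 10.03, 10.25 and 10.28 with shcontrol. POU5F1 and NANOG share their probe sets with other symbols and were not analysed here as genes. Neural plate genes averaged 5.89 to 6.00 with shKBTBD8 and 6.00 to 6.07 with shcontrol.

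KBTBD8 itself, on chromosome 3, fell. Its level was 5.13 and 4.96 on the shKBTBD8 arrays, against 6.39, 7.09 and 7.03 on the shcontrol arrays. Untransduced cells had 6.50, 6.43 and 6.03, so the groups with and without the KBTBD8 shRNA did not overlap. The difference from shcontrol was −1.79 ± 0.26 (standard error, as after every ± here), a 3.46-fold fall with an adjusted p of 3.0e-04. An exact permutation test over the 10 regroupings of the 5 arrays gave a two-sided p of 0.2, the smallest this design allows. The array labelled EB6 shKBTBD8 replicate 2 had 5.12, and with that array in place the difference was −1.77. Leaving out any single array kept the difference between −2.02 and −1.67. Both shKBTBD8 values lay at or under the 34.4 percentile of their arrays, below the 40th percentile used as the filter. Against untransduced cells KBTBD8 fell by 1.27 ± 0.26 (adjusted p 0.002).

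Between shKBTBD8 and shcontrol cells 1979 genes differed, of which 1194, or 8.31% of those tested, were higher and 785, or 5.46%, were lower with shKBTBD8. Only 90 differed by 2-fold or more, 70 of them upward and 20 downward. With arrays centred on their medians 998 genes were higher and 883 lower, and on all 18 arrays as labelled 326 and 401. Whether these differences come from the loss of KBTBD8 was not tested. The largest changes were rises of the arrestin relatives TXNIP and ARRDC4 and of stress-response genes around DDIT3, and a fall of the secreted protease inhibitor CST1. Both shKBTBD8 arrays lay above all 3 shcontrol arrays for 23.3% of the genes tested and below them for 21.9%, which is the background for every statement here that 2 groups did not overlap. The count depends on the few arrays: without shKBTBD8 replicate 1 it was 1069, without shKBTBD8 replicate 3 it was 724, and with all 18 arrays as labelled it was 727. With the array labelled EB6 shKBTBD8 replicate 2 in place it was 2863, and 1870 of those were shared with the 1979 in the same direction. Of the 15 largest rises and 15 largest falls, chosen on the fit of 16 arrays, 4 rises and 10 falls passed on all 18 arrays. The rises of CXCR2, FGF21 and IL20RB and the fall of ANKRD1 concern genes that passed the filter on low values only through the group where they are high, so these genes had to differ, and their values are given as a description without a test.

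**Figure D1:**
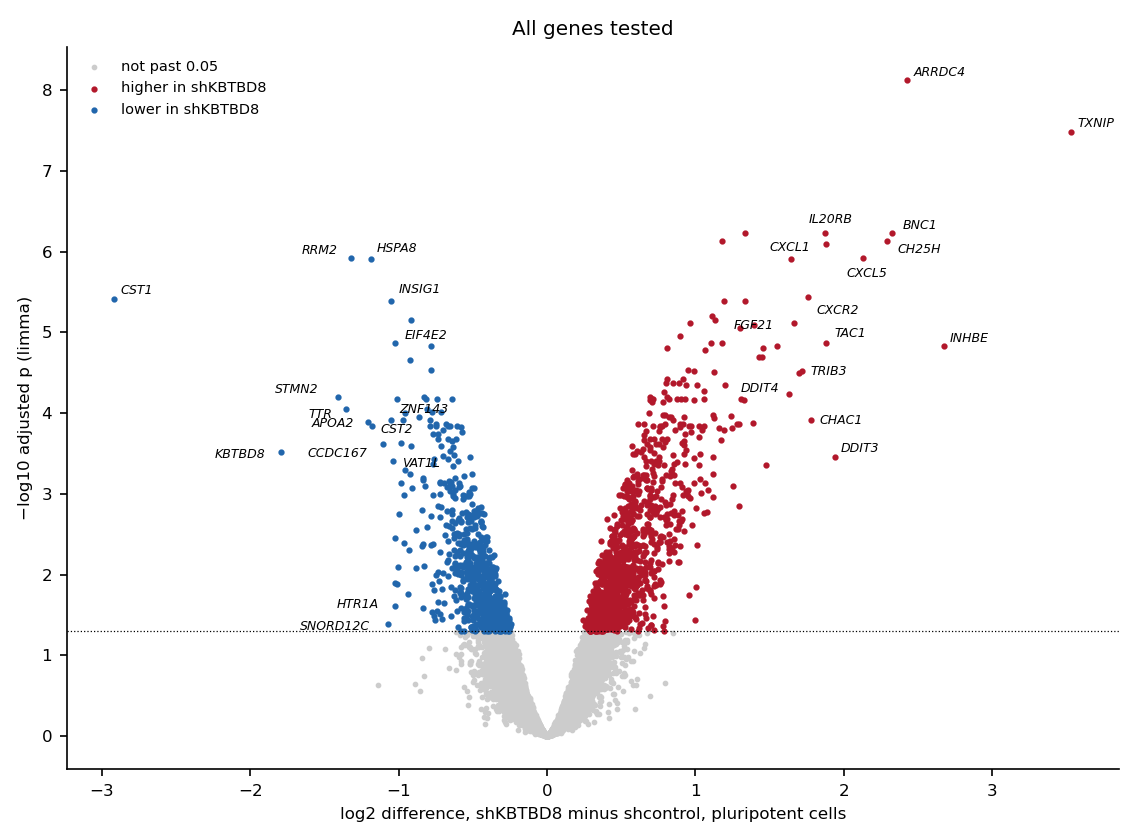
Each point is 1 of the genes tested, placed by its log2 difference (shKBTBD8 minus shcontrol, pluripotent cells) and by −log10 of its adjusted p from limma. Points above the dotted line at 0.05 are coloured by direction, and the 15 largest rises and 15 largest falls with groups that do not overlap are named. TXNIP lies furthest to the right at 3.53 and CST1 furthest to the left at −2.92.

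The largest rise was that of TXNIP, an α-arrestin that binds thioredoxin and limits glucose uptake, and whose gene is switched on by the glucose-sensing factors MondoA and ChREBP with their partner MLX. TXNIP measured 11.03 and 11.02 with shKBTBD8, against 7.44, 7.61 and 7.42 with shcontrol. The arrays of each group lay close together and the groups far apart, with a difference of 3.53 ± 0.19 or 11.6-fold (adjusted p 3.3e-08). Untransduced cells had 8.77, 9.62 and 9.73, between the transduced groups. TXNIP was therefore higher with shKBTBD8 than in untransduced cells, by 1.65 ± 0.19 (adjusted p 2.7e-05), and lower with shcontrol than in untransduced cells, by −1.88 (adjusted p 5.8e-06).

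ARRDC4, a close relative of TXNIP and a fellow target of MondoA, rose as well. It measured 7.89 and 7.99 with shKBTBD8, against 5.36, 5.50 and 5.68 with shcontrol, a difference of 2.43 ± 0.11 or 5.37-fold (adjusted p 7.5e-09). The lowest shcontrol value of ARRDC4, at the 36.9 percentile, lay under the filter level. Untransduced cells had 6.05, 6.06 and 6.05, below both shKBTBD8 arrays and above all shcontrol arrays. The array labelled EB6 shKBTBD8 replicate 2 had 8.07 for ARRDC4 and 11.02 for TXNIP. The rest of the arrestin and nutrient-sensing list did not move with them as a whole. Of its 15 tested members 6 rose and none fell, beside 8.31% and 5.46% of all genes. The list's median difference was 0.33, beside −0.01 for all genes tested. The other risers were DDIT4 (1.70 ± 0.18), an inhibitor of the growth kinase mTORC1, KLF10 (1.11 ± 0.10) and KLF11 (0.66), zinc finger repressors, and SESN2 (0.99 ± 0.15), a leucine sensor. ARRDC3 (0.49), ARRDC2 (−0.09), ARRDC1 (0.08) and SESN1 (−0.05) did not pass the test. The count of rises was 6 with each single array left out.

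DDIT4 differed from its companions in untransduced cells. It measured 8.62 and 8.29 with shKBTBD8, against 6.71, 6.72 and 6.84 with shcontrol and 7.85, 8.73 and 8.62 in untransduced cells. Against untransduced cells its difference was 0.06 ± 0.18 (adjusted p 0.85), and its groups overlapped there. Among the 15 largest rises DDIT4 was the only one that did not pass against untransduced cells, though CXCR2, FGF21 and IL20RB had to differ there through the filter. Of the 15 tested arrestin and nutrient-sensing genes 5 rose and 3 fell there, beside 17.1% and 11.0% of all genes.

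**Figure D2:**
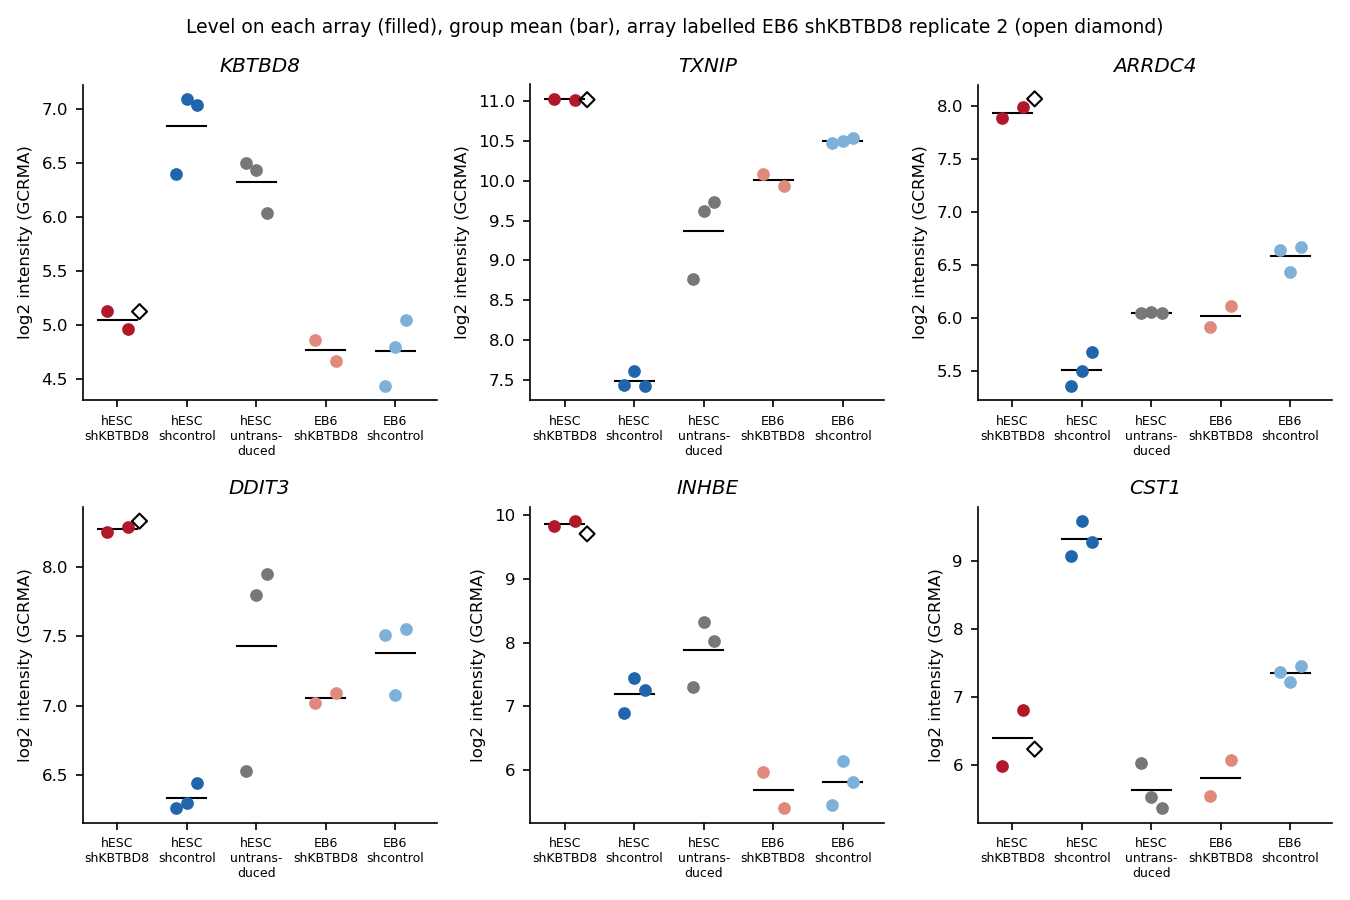
The log2 intensity of 6 genes is plotted for pluripotent (hESC) and embryoid body (EB6) arrays, with 1 filled point per array and a bar at the group mean. The open diamond is the array labelled EB6 shKBTBD8 replicate 2. In pluripotent cells TXNIP, ARRDC4, DDIT3 and INHBE lie higher with shKBTBD8 than with shcontrol, KBTBD8 and CST1 lie lower, and the diamond lies beside the pluripotent shKBTBD8 points in each panel.

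The promoters of TXNIP and ARRDC4 are shown because both genes are known targets of MondoA, which with MLX binds E-boxes. RefSeq windows of 300 bases on GRCh38.p14, from 250 bases before a start to 50 after it, were searched on both strands for the E-box CACGTG and the CCAAT box, CCAAT. Capitals mark the matches, with ATTGG as the CCAAT box of the other strand. The windows lie at chr1:145996530-145996829 on the minus strand for TXNIP, 1 of its 2 windows, and at chr15:97960453-97960752 on the plus strand for ARRDC4.
TXNIP: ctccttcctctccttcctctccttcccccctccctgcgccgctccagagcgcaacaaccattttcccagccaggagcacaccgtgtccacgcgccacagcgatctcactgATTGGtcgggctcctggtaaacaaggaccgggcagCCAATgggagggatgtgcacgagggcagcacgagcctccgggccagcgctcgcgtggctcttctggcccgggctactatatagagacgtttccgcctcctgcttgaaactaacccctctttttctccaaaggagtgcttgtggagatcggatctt
ARRDC4: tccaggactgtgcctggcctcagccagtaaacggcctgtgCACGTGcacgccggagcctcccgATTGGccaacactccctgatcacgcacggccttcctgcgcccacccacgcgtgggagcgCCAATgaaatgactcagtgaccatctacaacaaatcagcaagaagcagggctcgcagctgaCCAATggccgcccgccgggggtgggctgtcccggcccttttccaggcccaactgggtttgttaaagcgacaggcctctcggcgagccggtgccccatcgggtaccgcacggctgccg
The TXNIP window held 2 CCAAT boxes and no CACGTG, and the ARRDC4 window held 3 CCAAT boxes and 1 CACGTG. The E-box letters occur in 7.26% of all 35116 windows and the CCAAT letters in 34.6%. A match describes these letters only and is no evidence of binding. Variants of the E-box were not searched, so the absence of CACGTG does not show that a window lacks a site for MondoA.

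A second group of rises belonged to the ATF4 and CHOP stress response. Of 30 tested members 23 rose, none fell, and the median difference was 0.75. The background for this and every later list count against shcontrol is 8.31% of all genes tested rising, 5.46% falling and a median of −0.01. All lists were chosen with earlier results of these data known, as was DDIT3, so list counts are descriptions without a set test. FGF21, 1 of the 23, passed the filter only through shKBTBD8. The members that rose include the factors that ATF4 and CHOP induce or work with, the enzymes of serine and asparagine synthesis, and secreted factors. With a single array left out the count of rises lay between 17 and 20. On all 18 arrays as labelled only 5 rose, and with the array labelled EB6 shKBTBD8 replicate 2 in place 22 rose and 1 fell.

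DDIT3, which encodes CHOP, measured 8.25 and 8.29 with shKBTBD8, against 6.26, 6.30 and 6.44 with shcontrol. The groups lay apart by 1.94 ± 0.28 or 3.83-fold (adjusted p 3.4e-04). Untransduced cells were spread over 6.53, 7.80 and 7.95, all below both shKBTBD8 arrays, and the difference from them was 0.84 ± 0.28 (adjusted p 0.036). ATF4 itself did not rise: it had 10.65 and 10.57 with shKBTBD8, against 10.78, 10.90 and 10.87 with shcontrol, a difference of −0.24 ± 0.08 (adjusted p 0.073). ATF4 is regulated in large part at the level of its translation, which the arrays do not measure.

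The factors downstream of ATF4 followed DDIT3. TRIB3, a pseudokinase induced by both factors, had 8.03 and 8.41 with shKBTBD8, against 6.64, 6.68 and 6.19 with shcontrol (1.72 ± 0.18, adjusted p 3.0e-05). CHAC1, which breaks down glutathione, had 9.43 and 9.19 with shKBTBD8, against 7.57, 7.57 and 7.46 with shcontrol (1.78 ± 0.23, adjusted p 1.2e-04). Neither gene overlapped between shKBTBD8 and shcontrol. Untransduced cells had 6.78, 7.19 and 6.96 for TRIB3 and 7.64, 8.74 and 8.59 for CHAC1. The array labelled EB6 shKBTBD8 replicate 2 had 7.80 for TRIB3 and 8.53 for CHAC1, the latter within the untransduced range. ATF5 (1.12), ATF3 (0.88), NUPR1 (0.96), CEBPG (0.71) and JDP2 (0.47), all transcription regulators, rose as well, whereas CEBPB (−0.02) did not pass. PPP1R15A, which guides the phosphatase that restores eIF2α, rose by 0.85 ± 0.12.

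Secreted factors of the list differed in the size of their rises. INHBE, the inhibin βE subunit and the largest rise of the list, measured 9.83 and 9.91 with shKBTBD8, against 6.89, 7.44 and 7.26 with shcontrol. That is a difference of 2.67 ± 0.27 or 6.38-fold (adjusted p 1.5e-05), and untransduced cells lay between at 7.30, 8.33 and 8.03. FGF21, a hormone of the fasting response, had 6.58 and 6.72 with shKBTBD8, against 5.26, 4.97 and 4.74 with shcontrol. All 3 shcontrol values of FGF21 lay under the filter level of their arrays, as did its values in every other group of the fit. STC2, a secreted glycoprotein, rose by 1.30 ± 0.15, and GDF15, a stress cytokine, by 0.54 ± 0.16, a call that ended without shKBTBD8 replicate 1 (adjusted p 0.18), among others.

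Amino acid supply rose in smaller steps. ASNS, asparagine synthetase, had 10.41 and 10.33 with shKBTBD8, against 9.64, 9.63 and 9.50 with shcontrol, a difference of 0.78 ± 0.09. The serine pathway enzymes PHGDH (0.33), PSAT1 (0.39) and PSPH (0.58), the mitochondrial folate enzymes MTHFD2 (0.61), SHMT2 (0.54) and ALDH1L2 (1.42), the mitochondrial PCK2 (0.95) and CTH (1.03), which makes cysteine, all rose. Among 14 tested amino acid transporters 6 rose and 1 fell, beside 8.31% and 5.46% of all genes, with a median of 0.24. On all 18 arrays as labelled none of them rose and 1 fell. The cystine importer SLC7A11 had 9.99 and 9.86 with shKBTBD8, against 8.16, 8.36 and 8.33 with shcontrol (1.65 ± 0.13, adjusted p 1.2e-06). SLC1A4 (0.84 ± 0.13) and SLC6A9 (0.73 ± 0.11), carriers of small neutral amino acids and glycine, followed. SLC43A1 rose by 0.60 ± 0.12, though not without shKBTBD8 replicate 3 (adjusted p 0.081), and SLC7A8 fell by 0.34.

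Enzymes that charge transfer RNAs form a further set that ATF4 is known to induce. Of 19 tested cytosolic aminoacyl-tRNA synthetases 8 rose and 1 fell, beside 8.31% and 5.46% of all genes, and the median was 0.21. On all 18 arrays as labelled none rose and 1 fell. SARS1, the enzyme for serine, had 10.42 and 10.43 with shKBTBD8, against 9.41, 9.58 and 9.60 with shcontrol (0.90 ± 0.09, adjusted p 1.1e-05). CARS1 (0.68 ± 0.11), AARS1 (0.64 ± 0.09) and GARS1 (0.57 ± 0.08) rose too. FARSB, a subunit of the phenylalanine enzyme, fell by 0.50, and HARS1 (0.02) and RARS1 (−0.04) did not pass.

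The promoters of 4 risen members are printed because they hold the letters of the composite site that ATF4 and C/EBP proteins bind together. The motif searched was TGATGNAA on both strands, and no match overlaps a CCAAT box in the windows printed. It was found in windows of 6 of the 18 risen members that had one, namely ASNS, ATF3, CEBPG, CHAC1, FGF21 and JDP2. These are 21.4% of 28 windows, beside 3.62% of all 35116 windows. A list built around ATF4 may hold its site more often than all windows, whatever the arrays show. The list was also chosen with earlier results of these data known, and FGF21 passed the filter only through shKBTBD8. The share is therefore a description without a test, and a match is no evidence of binding. Capitals mark the match. The windows are chr15:40953221-40953520 (plus strand) for CHAC1, chr19:48755274-48755573 (plus) for FGF21, chr7:97872359-97872658 (minus) for ASNS and chr1:212565157-212565456 (plus) for ATF3.
CHAC1: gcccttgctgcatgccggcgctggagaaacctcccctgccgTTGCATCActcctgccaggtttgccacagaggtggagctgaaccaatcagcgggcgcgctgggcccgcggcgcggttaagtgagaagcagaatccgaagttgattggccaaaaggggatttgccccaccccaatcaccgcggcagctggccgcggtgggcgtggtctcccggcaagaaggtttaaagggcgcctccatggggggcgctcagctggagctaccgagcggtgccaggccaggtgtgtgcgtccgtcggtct
FGF21: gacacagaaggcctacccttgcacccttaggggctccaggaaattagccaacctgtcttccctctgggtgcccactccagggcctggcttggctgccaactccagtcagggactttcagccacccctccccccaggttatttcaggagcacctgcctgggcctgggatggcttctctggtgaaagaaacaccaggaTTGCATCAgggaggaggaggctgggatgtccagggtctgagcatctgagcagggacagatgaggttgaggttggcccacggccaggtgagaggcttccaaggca
ASNS: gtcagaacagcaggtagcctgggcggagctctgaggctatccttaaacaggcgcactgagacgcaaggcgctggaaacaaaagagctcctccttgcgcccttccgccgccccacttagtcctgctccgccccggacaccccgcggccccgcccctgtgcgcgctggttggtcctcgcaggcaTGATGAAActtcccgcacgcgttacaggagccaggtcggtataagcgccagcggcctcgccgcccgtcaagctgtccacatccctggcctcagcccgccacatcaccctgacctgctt
ATF3: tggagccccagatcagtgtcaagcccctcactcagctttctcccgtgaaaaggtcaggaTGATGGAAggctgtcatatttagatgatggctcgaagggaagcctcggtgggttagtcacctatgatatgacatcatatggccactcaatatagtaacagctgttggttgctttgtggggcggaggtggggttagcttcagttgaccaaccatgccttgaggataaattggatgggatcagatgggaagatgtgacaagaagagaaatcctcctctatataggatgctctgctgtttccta
Counted from the start site, the match began at base −209 in CHAC1, −54 in FGF21, −68 in ASNS and −191 in ATF3. CHAC1 and FGF21 carry the same 8 letters, on the strand opposite to their reading direction.

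Chaperones of the endoplasmic reticulum, which the ATF6 and XBP1 arms of the unfolded protein response are known to induce, did not rise with the ATF4 group. Of 17 tested members 5 fell and 1 rose, against a background of 5.46% falling and 8.31% rising, and the median was −0.19. SDF2L1 had 6.99 and 6.91 with shKBTBD8, against 8.01, 7.91 and 7.97 with shcontrol (−1.01 ± 0.12, adjusted p 6.8e-05). HSPA5, the Hsp70 of this compartment, had 11.14 and 11.03 with shKBTBD8, against 11.79, 11.79 and 11.88 with shcontrol (−0.74 ± 0.13, adjusted p 0.0014). CRELD2 fell by 0.58 ± 0.11 and PDIA4, a disulfide isomerase, by 0.40. MANF fell by 0.47 ± 0.10, but not without shKBTBD8 replicate 3 (adjusted p 0.085), when 3 members of the list fell. XBP1 (−0.08), HERPUD1 (0.14), HYOU1 (−0.12) and HSP90B1 (−0.09) did not pass, and the sensor ATF6 was the member that rose (0.42). Against untransduced cells 3 fell and 2 rose, beside 11.0% and 17.1% of all genes.

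Part of the heat shock protein genes had lower levels as well. Of 18 tested members 7 fell and 1 rose, beside 5.46% and 8.31% of all genes, with a median of −0.22. The constitutive chaperone HSPA8 had 11.11 and 11.08 with shKBTBD8, against 12.34, 12.27 and 12.24 with shcontrol, a difference of −1.19 ± 0.09 or 2.28-fold (adjusted p 1.2e-06). Untransduced cells had 12.08, 11.80 and 11.75, and the difference from them was −0.78 ± 0.09. HSPA8 is among the most intense genes on these arrays, at the 97.3 percentile on the higher of the shKBTBD8 arrays. Its J-domain partners DNAJB1 (−0.99 ± 0.16) and DNAJA1 (−0.82 ± 0.13) and the exchange factor HSPH1 (−0.54 ± 0.12) fell, whereas the mitochondrial HSPD1 (0.12) and HSPA9 (0.22) did not pass and HSPA4L rose by 0.67. HSPA2 fell by 0.76 ± 0.22, a call that ended without shKBTBD8 replicate 3 (adjusted p 0.18) and without 3 other single arrays. Without shKBTBD8 replicate 1 the number that fell was 3, and without shcontrol replicate 2 or shKBTBD8 replicate 3 it was 4. On all 18 arrays it was 3. Against untransduced cells 7 fell and 2 rose, beside 11.0% and 17.1% of all genes.

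Transcripts of 11 of 19 tested genes of sterol synthesis fell. In this pathway SREBP2 switches on the enzymes from acetyl-CoA to cholesterol when sterols are scarce, and INSIG1 holds SREBP2 and its escort SCAP in the endoplasmic reticulum when they are plentiful. Of the other members 1 rose and 7 did not pass, and the median of the list was −0.38, beside 5.46% of all genes falling. INSIG1, itself an SREBP2 target, had 7.12 and 7.21 with shKBTBD8, against 8.14, 8.23 and 8.29 with shcontrol (−1.05 ± 0.09, adjusted p 4.1e-06). The early enzyme HMGCS1 had 10.28 and 10.17 with shKBTBD8, against 11.02, 11.03 and 10.96 with shcontrol (−0.78 ± 0.08, adjusted p 2.9e-05). SQLE, which oxidises squalene, had 9.79 and 9.77 with shKBTBD8, against 10.45, 10.63 and 10.56 with shcontrol (−0.77 ± 0.10). None of these groups overlapped.

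The other falls were spread along the pathway. MSMO1 (−0.87 ± 0.11) and NSDHL (−0.82 ± 0.10), which remove methyl groups from the sterol ring, DHCR7 (−0.77), which makes cholesterol in the last step, and IDI1 (−0.71), MVD (−0.49), LSS (−0.40), EBP (−0.32) and ACAT2 (−0.31) all fell. The later enzymes CYP51A1 (−0.15, adjusted p 0.26) and SC5D (−0.36, adjusted p 0.079) did not pass. TM7SF2 was the member that rose (0.29). SREBF2, the gene of SREBP2, measured 8.68 and 8.77 with shKBTBD8, against 8.58, 8.64 and 8.68 with shcontrol, and its difference of 0.09 ± 0.10 did not pass. Without shKBTBD8 replicate 1 the number of members that fell was 7, without replicate 3 it was 7, and on all 18 arrays it was 7. With the array labelled EB6 shKBTBD8 replicate 2 in place 13 fell. Against untransduced cells 8 fell, beside 11.0% of all genes, and none rose. Among the falls were HMGCS1 (−0.75), IDI1 (−0.71), MSMO1 (−0.63) and INSIG1 (−0.54), while SQLE (−0.15), DHCR7 (−0.28) and MVD (−0.06) did not pass.

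CH25H, which makes 25-hydroxycholesterol, a sterol known to retain SCAP with INSIG proteins, was among the 5 largest rises. It had 8.27 and 8.36 with shKBTBD8, against 6.13, 6.18 and 5.75 with shcontrol and 5.54, 6.10 and 5.50 in untransduced cells. The difference was 2.29 ± 0.17 or 4.89-fold from shcontrol (adjusted p 7.3e-07) and 2.60 ± 0.17 from untransduced cells. The control groups overlapped each other and neither overlapped shKBTBD8. VLDLR, a lipoprotein receptor of the ATF4 list, had 9.93 and 10 with shKBTBD8, against 8.98, 9.05 and 9.11 with shcontrol (0.92 ± 0.12). Genes of fatty acid synthesis gave 1 rise and 2 falls among 11 tested. ELOVL6 fell by 0.69 ± 0.13, though not without shKBTBD8 replicate 1 (adjusted p 0.054), and SCD (−0.10), FADS1 (0.10) and ACLY (−0.25) did not pass.

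The 9 sterol genes that fell and had a promoter window all held the CCAAT letters, in 76.9% of 13 windows, beside 34.6% of all windows. This list too was chosen with earlier results of these data known, so its share is a description without a test. The sterol regulatory element letters TCACNCCAC were found in none of these 13 windows and in 1.13% of all windows, which says only that these letters are not in windows of this length. The windows are not printed, because the letters are short and common.

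**Figure D3:**
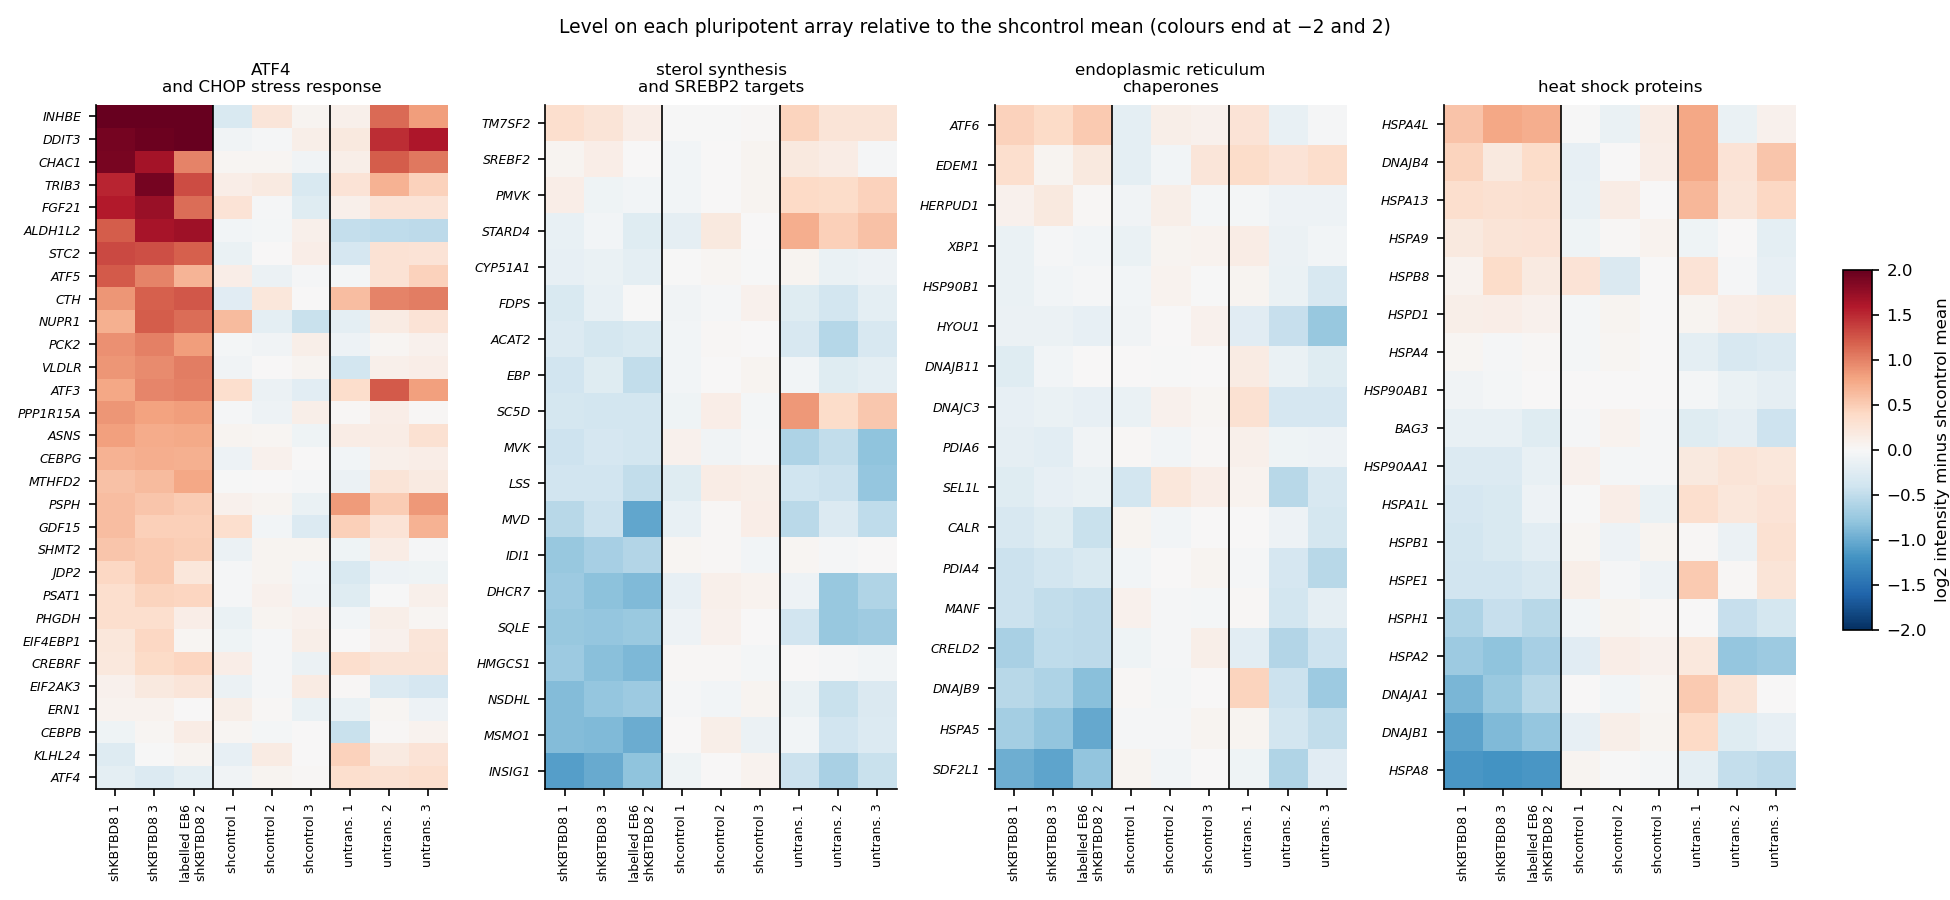
Each row is a tested member of 4 gene lists and each column a pluripotent array, with shKBTBD8 and the array labelled EB6 shKBTBD8 replicate 2 at the left, then shcontrol, then untransduced cells (untrans.). Colour is the log2 intensity minus the shcontrol mean, from blue (lower) to red (higher), and ends at −2 and 2. Most ATF4 and CHOP genes are red in the first 3 columns, and most sterol genes and part of both chaperone lists are blue there.

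The 15 largest rises also held CXCL5, CXCL1 and CXCR2, which are given one by one, since no list of chemokines was counted. CXCL5, which draws neutrophils, had 9.63 and 9.70 with shKBTBD8, against 7.33, 7.78 and 7.48 with shcontrol (2.13 ± 0.16, adjusted p 1.2e-06). CXCL1 had 9.02 and 8.93 with shKBTBD8, against 7.13, 7 and 7.15 with shcontrol (1.88 ± 0.14, adjusted p 8.1e-07). Untransduced cells had 9.02, 8.91 and 8.69 for CXCL5, near the shKBTBD8 level, and 7.03, 7.48 and 7.19 for CXCL1, near the shcontrol level. CXCR2, the receptor of both, had 6.02 and 6.09 with shKBTBD8, against 4.06, 4.25 and 4.59 with shcontrol. The cytokine receptor subunit IL20RB had 6.72 and 6.73 with shKBTBD8, against 4.71, 4.74 and 5.10 with shcontrol. For CXCR2 and IL20RB the values of every other group in the fit lay under the filter level.

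BNC1, a zinc finger protein of epithelia and germ cells, had 7.33 and 7.68 with shKBTBD8, against 5.33, 5.16 and 5.05 with shcontrol (2.32 ± 0.16, adjusted p 5.9e-07), the last 3 again under the filter level. TAC1, the precursor of substance P, had 8.22 and 8.37 with shKBTBD8, against 6.44, 6.33 and 6.49 with shcontrol (1.88 ± 0.18, adjusted p 1.4e-05). VEGFA, an angiogenic factor, had 8.84 and 8.87 with shKBTBD8, against 7.42, 7.34 and 7.64 with shcontrol (1.39 ± 0.13). VEGFA was the single rise among 23 hypoxia and glycolysis genes. LDHA, which makes lactate, fell by 0.73 ± 0.10, and HILPDA fell by 0.53 ± 0.12 except without shKBTBD8 replicate 1 or 3 (adjusted p up to 0.090). Of 17 interferon response genes 4 rose, beside 8.31% of all genes, namely MX2 (0.81 ± 0.08), IFIH1 (0.76 ± 0.14), BST2 (0.75 ± 0.11) and MX1 (0.57 ± 0.14). IFIH1 lay under the filter level on all 5 arrays compared. Against untransduced cells MX2 (0.44) and MX1 (0.41) were higher with shKBTBD8, IFIH1 was lower (−0.39, adjusted p 0.045) and BST2 (−0.13) did not pass. The IFIH1 and MX1 calls ended without shKBTBD8 replicate 3 (adjusted p 0.063 and 0.17), none of the 17 rose on all 18 arrays as labelled, and ISG15 (−0.01) and IFIT1 (0.12) did not pass.

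The largest fall was that of CST1, cystatin SN, a secreted inhibitor of cysteine proteases. It measured 5.98 and 6.81 with shKBTBD8, against 9.07, 9.58 and 9.28 with shcontrol, a difference of −2.92 ± 0.25 or 7.54-fold (adjusted p 3.8e-06). Untransduced cells, at 6.02, 5.53 and 5.36, lay with the shKBTBD8 arrays. CST1 was thus 3.68 higher with shcontrol than in untransduced cells (adjusted p 1.8e-07), and 0.76 ± 0.25 higher with shKBTBD8 than in untransduced cells (adjusted p 0.032). The array labelled EB6 shKBTBD8 replicate 2 had 6.23. CST2, its neighbour in the cystatin cluster of chromosome 20, had 6.17 and 5.99 with shKBTBD8, against 7.20, 7.23 and 7.35 with shcontrol (−1.18 ± 0.16). These were the 2 of 8 tested type 2 cystatins that fell. The genes of this cluster are near copies of one another, so a probe may report on more than its own gene, and the share of this in the values was not tested.

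A list of endoderm and yolk sac genes, most of them secreted proteins, had 6 falls and no rise among 16 tested members, beside 5.46% and 8.31% of all genes, and a median of −0.16. The other 10 did not pass, among them AMBP (0.01), SERPINA1 (0.20) and APOE (−0.06). TTR, a carrier of thyroid hormone, had 5.31 and 5.23 with shKBTBD8, against 6.63, 6.27 and 6.97 with shcontrol and 4.91, 5.26 and 5.03 in untransduced cells. APOA2, an apolipoprotein, had 5.47 and 5.98 with shKBTBD8, against 6.86, 6.84 and 7.10 with shcontrol and 5.07, 5.35 and 5.30 in untransduced cells. TTR fell by 1.35 ± 0.17 and APOA2 fell by 1.21 ± 0.15 (adjusted p 8.9e-05 and 1.3e-04). Against untransduced cells none of the 16 fell and 5 rose, beside 11.0% and 17.1% of all genes. AFP (−0.75 ± 0.23) and CXCR4 (−0.68 ± 0.13) fell too, the first not without shKBTBD8 replicate 3 (adjusted p 0.18) and the second not without shKBTBD8 replicate 1 (adjusted p 0.051). The mean level of the 23 list members with a probe set of their own was 5.31 to 5.40 with shKBTBD8, 5.56 to 5.67 with shcontrol and 5.04 to 5.07 in untransduced cells. On the shKBTBD8 arrays 8 and 10 of the 23 lay above the filter level, and on the shcontrol arrays 13 to 14 did. On the untransduced arrays 9 to 11 did, and on the array labelled EB6 shKBTBD8 replicate 2 the number was 12, near shcontrol. Whether a few cells of this type contribute to the shcontrol arrays was not tested.

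Of 40 tested replication and nucleotide synthesis genes 8 fell, 1 rose and 31 did not pass, beside 5.46% falling and 8.31% rising of all genes, and the median was −0.09. RRM2, the small subunit of ribonucleotide reductase, had 7.31 and 7.45 with shKBTBD8, against 8.53, 8.79 and 8.77 with shcontrol (−1.32 ± 0.10, adjusted p 1.2e-06). PCNA, the sliding clamp of the replication fork, had 8.75 and 8.76 with shKBTBD8, against 9.59, 9.40 and 9.52 with shcontrol (−0.75 ± 0.10, adjusted p 1.5e-04). FAM111B (−1.02 ± 0.25) and GINS1 (−0.46 ± 0.10) fell as well, but neither without shKBTBD8 replicate 1 (adjusted p 0.091 and 0.097). The MCM helicase genes tested did not pass. Without shKBTBD8 replicate 1 the number of falls was 3, and without shKBTBD8 replicate 3 or shcontrol replicate 3 it was 5. Among 21 mitosis genes 3 rose and 2 fell, beside 8.31% and 5.46% of all genes, with CCNB2, a mitotic cyclin, higher by 0.51 ± 0.10. Against untransduced cells the replication list went the other way. Of its 40 members 14 rose and 6 fell there, beside 17.1% and 11.0% of all genes, and the median was 0.14.

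The other large falls had no list in common. STMN2, a microtubule regulator of neurons, had 4.36 and 4.63 with shKBTBD8, against 5.77, 5.78 and 6.16 with shcontrol (−1.41 ± 0.16, adjusted p 6.4e-05), and both lower values were under the filter level. ZNF143, a promoter-binding zinc finger protein, fell by 1.05 ± 0.13, EIF4E2, a cap-binding protein that holds back translation, by 1.03 ± 0.10, CCDC167 by 1.11 ± 0.15 and VAT1L by 1.04 ± 0.15. EIF4E2 had 9.16 and 9.37 with shKBTBD8, against 10.28, 10.25 and 10.35 with shcontrol. The small nucleolar RNA gene SNORD12C (−1.07 ± 0.33) and the serotonin receptor gene HTR1A (−1.03 ± 0.28) passed only narrowly, and both calls ended with single arrays left out (adjusted p up to 0.18).

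**Figure D4:**
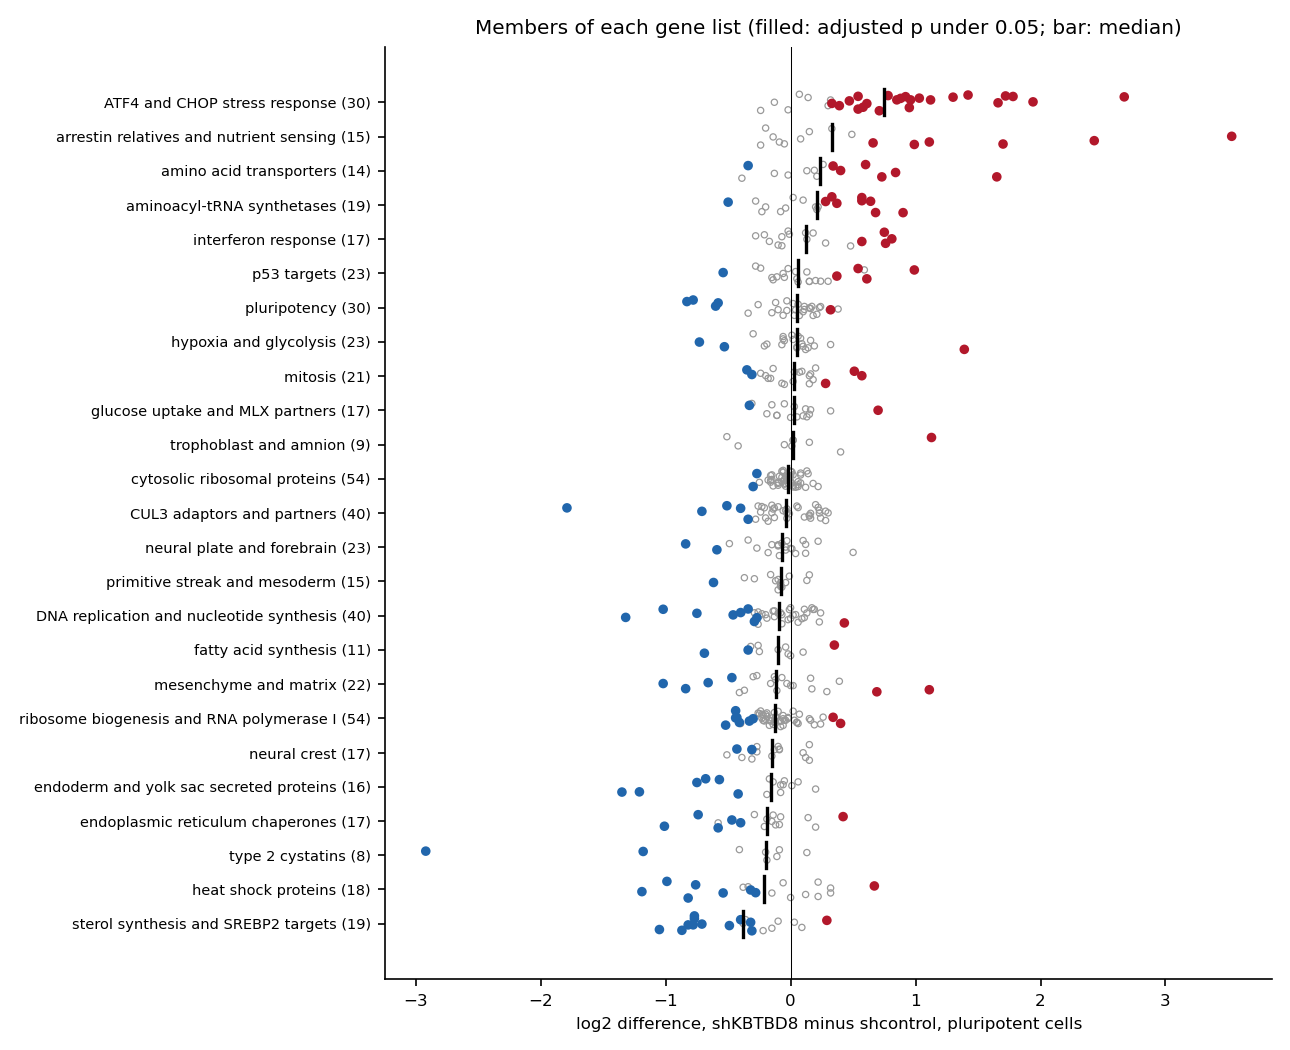
Each point is a tested member of a gene list, placed by its log2 difference (shKBTBD8 minus shcontrol, pluripotent cells). Filled points passed an adjusted p of 0.05, red for higher and blue for lower, and the black bar is the median of the list, whose number of tested members stands in brackets. The ATF4 and CHOP list has the highest median at 0.75 and the sterol list the lowest at −0.38.

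The nucleolar substrates of KBTBD8 and its scaffold CUL3 did not pass the test against shcontrol. TCOF1 had 8.26 and 8.36 with shKBTBD8, against 8.43, 8.52 and 8.67 with shcontrol (−0.23 ± 0.09, adjusted p 0.10). Against untransduced cells TCOF1 was higher, by 0.28 ± 0.09 (adjusted p 0.033). NOLC1 had 9.73 and 9.90 with shKBTBD8, against 9.83, 9.92 and 9.98 with shcontrol (−0.09 ± 0.09), and its groups overlapped. CUL3 had 9.77 and 9.87 with shKBTBD8, against 9.60, 9.71 and 9.66 with shcontrol (0.16 ± 0.08, adjusted p 0.22). Of 40 tested CUL3 adaptors and partners 5 fell and none rose, beside 5.46% and 8.31% of all genes, and 1 of the 5 was KBTBD8 itself. RBX1, the RING partner of CUL3, fell by 0.40 ± 0.10, KLHL13 by 0.51 ± 0.15 and ENC1 by 0.71 ± 0.21. These 3 calls ended with some single arrays left out, KLHL13 furthest with an adjusted p of 0.40 without shKBTBD8 replicate 1.

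Ribosome genes gave small differences. Of 54 tested genes of ribosome biogenesis and RNA polymerase I, 7 fell and 2 rose, beside 5.46% and 8.31% of all genes, with a median of −0.13, beside −0.01. The largest fall was RRP9, a protein of the U3 small nucleolar particle, at −0.52 ± 0.11. PES1, a factor of the large subunit, fell by 0.44 ± 0.11, though not without shKBTBD8 replicate 1 (adjusted p 0.14). Of 54 cytosolic ribosomal protein genes 2 fell and none rose, and their median was −0.02. Those were RPL29 (−0.30 ± 0.09) and RPL36 (−0.27 ± 0.09), calls that ended with any single array left out (adjusted p up to 0.18 and 0.30). Ribosomal protein genes have many processed copies in the genome, and only members with a probe set of their own were counted. The p53 targets, which a disturbed nucleolus is known to activate, gave 4 rises and 1 fall among 23, beside 8.31% and 5.46% of all genes. CDKN1A (−0.02), MDM2 (0.30) and BAX (−0.24) did not pass, while SESN2 (0.99 ± 0.15), also known as an ATF4 target, did. Against untransduced cells the ribosome biogenesis list went the other way, with 14 rises, 4 falls and a median of 0.11. The ribosomal protein list gave 2 rises and 18 falls there, and the p53 targets 2 rises and 10 falls. Of all genes 17.1% rose and 11.0% fell against untransduced cells.

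Among 30 tested pluripotency genes 1 rose and 4 fell, beside 8.31% and 5.46% of all genes. SOX2 was higher by 0.32 ± 0.10 (adjusted p 0.046), a call that ended with 4 of the 5 arrays left out singly, and it was the 1 rise. GDF3 fell by 0.83 ± 0.19, PRDM14 by 0.78 ± 0.19, NTS by 0.60 ± 0.19 and the methyltransferase DNMT3B by 0.58 ± 0.11. Of these the DNMT3B call alone held with each single array left out, and the others reached adjusted p values of 0.077, 0.16 and 0.26. DNMT3B had 10.39 and 10.44 with shKBTBD8, against 10.86, 11.00 and 11.12 with shcontrol and 10.67, 10.56 and 10.44 in untransduced cells. Of 17 neural crest genes 2 fell, beside 5.46% of all genes, namely PAX3 (−0.43 ± 0.12) and SOX9 (−0.31 ± 0.09), both lost with single arrays left out (adjusted p up to 0.17 and 0.19). FOXD3, which marks both pluripotent cells and early neural crest, had 5.40 and 5.55 with shKBTBD8, against 5.76, 5.63 and 5.49 with shcontrol (−0.15 ± 0.16), with overlapping groups. PAX3 lay under the filter level on all 5 arrays compared.

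Of 23 neural plate and forebrain genes 2 fell, beside 5.46% of all genes. OTX2, a factor of primed pluripotency and forebrain, had 7.81 and 7.82 with shKBTBD8, against 8.39, 8.35 and 8.49 with shcontrol and 9.77, 9.67 and 9.45 in untransduced cells. OTX2 differed by −0.59 ± 0.09 from shcontrol and by −1.81 ± 0.09 from untransduced cells (adjusted p 7.3e-04 and 4.2e-08). PRTG fell by 0.84 ± 0.17, though not without shKBTBD8 replicate 1 (adjusted p 0.059), and PAX6 (−0.15) had overlapping groups. TFAP2A, a neural crest and surface ectoderm factor, had 4.82 and 4.63 with shKBTBD8, against 5.09, 5.63 and 4.99 with shcontrol (−0.51 ± 0.19, adjusted p 0.083). With the array labelled EB6 shKBTBD8 replicate 2 in place TFAP2A passed (−0.48, adjusted p 0.044). TFAP2C, its relative of early trophoblast and germ cells, had 6.68 and 6.71 with shKBTBD8, against 5.64, 5.69 and 5.39 with shcontrol (1.12 ± 0.14, adjusted p 1.1e-04), and was the 1 rise among 9 tested trophoblast and amnion genes. Of 15 primitive streak and mesoderm genes only BMP4 fell, by 0.62 ± 0.14, except without shKBTBD8 replicate 3. BMP4 lay under the filter level on all 5 arrays compared.

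Matrix genes moved both ways. Of 22 tested mesenchyme and matrix genes 4 fell and 2 rose. LGALS1, galectin 1, had 10.23 and 10.24 with shKBTBD8, against 8.97, 9.27 and 9.13 with shcontrol (1.11 ± 0.14, adjusted p 1.1e-04). VIM, the intermediate filament vimentin, had 8.79 and 8.89 with shKBTBD8, against 9.59, 9.73 and 9.72 with shcontrol (−0.84 ± 0.13, adjusted p 6.8e-04). FN1, fibronectin, fell by 0.66, COL6A1 fell by 0.47, and COL6A3, another collagen VI chain, rose by 0.69 ± 0.13. ANKRD1, a YAP target, had 4.72 and 5.37 with shKBTBD8, against 5.88, 5.89 and 6.43 with shcontrol and 4.06, 4.22 and 4.15 in untransduced cells. It passed the filter only through shcontrol. The 17 genes of glucose uptake and MLX partners, the surroundings of TXNIP and ARRDC4, gave 1 rise, MXD1 (0.70 ± 0.16), and 1 fall, SLC2A4 (−0.33 ± 0.10), and both calls ended without single arrays (adjusted p up to 0.072 and 0.19). The glucose carrier SLC2A1 (−0.11) did not pass.

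Untransduced cells served as a further control. Between shKBTBD8 and untransduced cells 17.1% of genes tested were higher and 11.0% lower, and between shcontrol and untransduced cells 16.8% were higher and 12.0% lower. The split for shKBTBD8 depends on scaling, since its 2456 higher and 1585 lower genes became 2070 and 2027 after quantile normalization and 1558 and 2349 after centring arrays on their medians. These comparisons share arrays with each other and with the main one, so values are set side by side only. Of the 15 largest rises 14 also passed against untransduced cells, and of the 15 largest falls 10 did. CXCR2, FGF21 and IL20RB, among the 14, passed the filter only through shKBTBD8. They had to differ from untransduced cells too, so their passing there is no test. CST1 and APOA2 passed there with the opposite sign.

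Among the falls the pattern was mixed. STMN2 (−2.01 ± 0.16), CCDC167 (−1.29 ± 0.15), KBTBD8 (−1.27 ± 0.26), HSPA8 (−0.78 ± 0.09), RRM2 (−0.75 ± 0.10), EIF4E2 (−0.75 ± 0.10), INSIG1 (−0.54 ± 0.09) and ZNF143 (−0.47 ± 0.13) were lower with shKBTBD8 than in untransduced cells as well. CST1 (0.76) and APOA2 (0.49 ± 0.15) were higher with shKBTBD8 than in untransduced cells. TTR (0.20), CST2 (−0.27), VAT1L (−0.28), HTR1A (−0.37) and SNORD12C (0.59) did not pass. Of the ATF4 and CHOP list 20 rose and 2 fell against untransduced cells, beside 17.1% and 11.0% of all genes, ATF4 among the falls (−0.56). FGF21, among the 20, passed the filter only through shKBTBD8. The list members ATF3 (0.08), CTH (0.16), GDF15 (0.06) and PSPH (−0.16) did not pass there.

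In embryoid bodies the same shRNA gave another picture. There 403 genes, or 2.80%, were higher and 422, or 2.94%, were lower with shKBTBD8 than with shcontrol. KBTBD8 was low in both groups, at 4.86 and 4.66 with shKBTBD8 and 4.43, 4.79 and 5.04 with shcontrol, and its difference was 0.01 (adjusted p 0.998). None of the 30 ATF4 and CHOP genes passed, and their median was −0.13. Of the sterol genes 2 rose and none fell, and all 19 had a positive difference, with a median of 0.16.

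The difference of differences, pluripotent minus embryoid body, was tested in the same fit, and 5.99% of genes had a higher and 3.66% a lower difference in pluripotent cells. For TXNIP it was 4.03 (adjusted p 3.1e-07), with −0.50 ± 0.19 in embryoid bodies (adjusted p 0.17). For ARRDC4 it was 2.99 (adjusted p 6.0e-08), and there ARRDC4 fell by 0.56 in embryoid bodies (adjusted p 0.0055). DDIT3 (2.26), INHBE (2.80), BNC1 (2.66) and CH25H (2.18) gave values of the same kind, with embryoid body differences of −0.33, −0.12, −0.33 and 0.11 that did not pass. KBTBD8 itself gave −1.80 (adjusted p 0.005). The other genes named with this term, here and among the falls, were chosen by their pluripotent difference, which is part of the term. Sizes and p-values of the term are therefore not independent of that choice.

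The falls were shared in part. CST1 fell by 1.54 in embryoid bodies too (adjusted p 9.1e-04), and the difference of −1.38 between the states passed (adjusted p 0.021). STMN2 fell by 1.44 there, and for STMN2 the difference between the states was 0.03 (adjusted p 0.96). In untransduced embryoid bodies STMN2 had 6.83, 6.69 and 6.88, beside 6.51 and 6.73 with shKBTBD8 and 8.11, 7.90 and 8.15 with shcontrol. CST1 had 3.91, 4.49 and 4.10 in untransduced embryoid bodies, below its 5.54 and 6.07 with shKBTBD8. These embryoid body falls are thus relative to shcontrol, and shKBTBD8 was not tested against untransduced embryoid bodies. TTR (−2.60) and APOA2 (−2.67) fell further in embryoid bodies than in pluripotent cells, by 1.25 and 1.46 (adjusted p 0.003 and 5.4e-04). With shKBTBD8 both lay near the filter level in both states, with pluripotent and embryoid body means of 5.27 and 5.37 for TTR and 5.73 and 5.53 for APOA2. The shcontrol means were 6.62 and 7.97 for TTR and 6.93 and 8.20 for APOA2, so the sizes of the falls depend on the shcontrol level. Untransduced embryoid bodies had 5.13, 5.09 and 4.88 for TTR and 4.85, 5.09 and 4.88 for APOA2. HSPA8 (0.01) and INSIG1 (0.26) did not pass in embryoid bodies, and both differed between the states (−1.20 and −1.31).

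**Figure D5:**
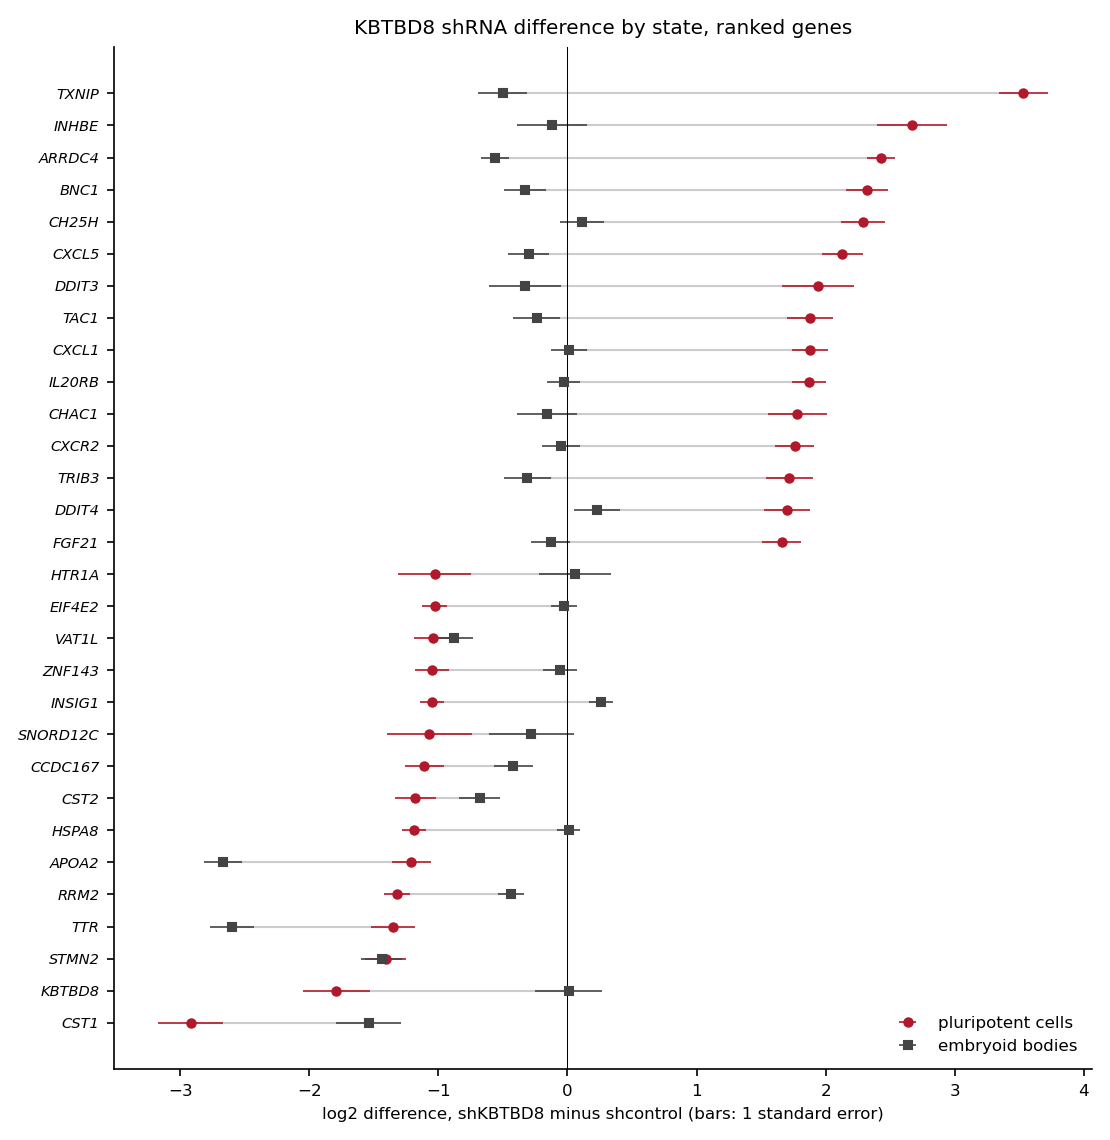
The log2 difference (shKBTBD8 minus shcontrol) of the 15 largest rises and 15 largest falls in pluripotent cells is plotted for pluripotent cells (red circles) and embryoid bodies (grey squares), with bars of 1 standard error. The genes were chosen by the pluripotent values. In embryoid bodies the 15 rises lie between −0.56 for ARRDC4, which passed the test there, and 0.23 for DDIT4, while CST1, STMN2, TTR and APOA2 lie well below 0 in both states.

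By level over the 16 arrays, the genes most like TXNIP were MYEF2 (Pearson r 0.936), TENT2 (0.913) and ZC3H8 (0.909). The genes most like CST1 were MYCN (0.959), ATP2A2 (0.938) and NLE1 (0.935). These are descriptions over arrays that fall into 6 groups of 2 or 3, so much of each r is shared group structure. MYCN, a transcription factor of the MYC family, had 8.27 and 8.24 with shKBTBD8, against 8.62, 8.74 and 8.67 with shcontrol and 8.10, 7.98 and 7.87 in untransduced cells.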

How the data were processed

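RNA of H1 cells was hybridised to Human Gene 1.0 ST arrays. The deposited values are log2 intensities. The authors used GCRMA (per the submitters' processing notes, without a version), and the base of the logarithm was inferred from the range, 1.54 to 13.89. Whether all 18 arrays were normalized together is not given in the sources used here. Raw array files were not analysed here.

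Of 33297 probe sets, 19460 carry 1 gene symbol, 1754 several and 12083 none. Symbols were updated through gene identifiers to RefSeq of GRCh38.p14, where 31 had no entry. The probe set with the highest mean stood for its gene, and 668 tested genes had several. A gene was tested if at least 2 of 16 arrays held it above their own 40th percentile. limma 3.58.1 in R 4.3.3 fitted 6 group means with empirical Bayes variances (10 residual degrees of freedom), with Benjamini-Hochberg adjustment over all 14373 genes and a threshold of 0.05. The 2 arrays labelled replicate 2 of the KBTBD8 shRNA were left out. The design text calls the 3 samples of a group independent without saying whether they were separate cultures, so p-values measure the spread between arrays, which may be technical, and the number of arrays limits the precision.

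The 5 marker genes, the 25 gene lists and the choice of arrays were made with earlier results of these data known. Named genes are KBTBD8, the markers, the 15 largest rises and 15 largest falls past the threshold whose groups do not overlap, up to 4 members with the largest changes of each list, a set of 8 (SOX2, FOXD3, PAX6, TFAP2A, TFAP2C, TCOF1, NOLC1 and CUL3), and the 3 genes most like TXNIP and CST1; other members are given only as values of their list. RefSeq promoter windows were searched for 4 motifs. Alternatives were another array in place, all 18 arrays, only the 5 arrays, a replicate block, other scaling, filters, probe set rules, an intensity trend and single arrays left out. The procedure was tested on simulated data. Figures were drawn with matplotlib 3.10.9 in Python 3.11.15.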

Additional observations from a re-analysis of the deposited data

Results flagged for a closer look

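Several differences between shKBTBD8 and shcontrol themselves differed between pluripotent cells and embryoid bodies, by the interaction term of limma over 16 arrays. The pluripotent minus embryoid body difference was 4.03 for TXNIP, 2.99 for ARRDC4, 2.26 for DDIT3, 2.80 for INHBE, 2.66 for BNC1 and 2.18 for CH25H. Each of these genes rose in pluripotent cells, while in embryoid bodies ARRDC4 fell and the others did not pass. It was −1.38 for CST1 and −0.88 for RRM2, which fell in both states and further in pluripotent cells. For TTR it was 1.25, and TTR fell in both states and further in embryoid bodies, with shKBTBD8 levels near the filter level in both. It was −1.80 for KBTBD8, which fell in pluripotent cells and did not pass in embryoid bodies. KBTBD8 was low in both embryoid body groups, where its highest array value was 5.04. The other genes were chosen by their pluripotent difference, which is part of the interaction term, so their values of the term are not independent of that choice.

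The array labelled hESC shKBTBD8 replicate 2, which entered no comparison of the main fit, carried PAX6 at 8.90 and TFAP2A at 8.67. Both lie above every shcontrol array of the pluripotent state, where PAX6 reached 4.85 and TFAP2A 5.63. They lie near the EB6 shKBTBD8 arrays, which had 9.04 and 9.09 for PAX6 and 8.72 and 8.95 for TFAP2A. This array correlated at 0.99 with the EB6 shKBTBD8 arrays and at 0.91 with its own label. Its values are therefore not read as an effect of the shRNA in pluripotent cells. Why the array resembled the other state was not tested.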

How the results depend on the processing

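Only 2 arrays represent shKBTBD8, and the filter level limits what a low array value shows. The count of 1979 genes lay between 724 and 1499 with 1 array left out, and was 727 on all 18 arrays as labelled, where 2022 genes changed against untransduced cells (in place of 4041) and 522 in the difference between states (in place of 1387). The same setting left 5 risen ATF4 and CHOP genes, 7 fallen sterol genes and 3 fallen heat shock genes, and no risen amino acid transporter, tRNA synthetase or interferon response gene. It also turned the sign of CARS1 (−0.01), CXCR4 (0.00), ENC1 (0.66), HILPDA (0.10), ME1 (−0.16), OTX2 (0.34), PAX3 (0.55), PRTG (0.97), SLC43A1 (−0.15) and SOX9 (0.00), since it counts an array with embryoid body levels as pluripotent. With 1 array left out the members that fell numbered 7 to 10 for sterol genes, 3 to 5 for endoplasmic reticulum chaperones, 3 to 5 for heat shock proteins and 3 to 9 for replication genes. Of 104 named genes called, 61 kept the call with every single array left out and 43 lost it with at least 1. Leaving out 1 array of 5 leaves fewer samples, and where only 1 shKBTBD8 array was left it was assumed to vary like the other groups. KBTBD8 kept its fall under every alternative run. Replicate numbers are shared by shKBTBD8 and shcontrol, but with only 2 pairs they were not taken to pair the samples. The deviations of same-numbered arrays correlated at 0.38 and 0.36. The deviations of only 2 shKBTBD8 arrays from their mean mirror each other, so these correlations are not independent signs of pairing. A replicate block gave 1805 genes and ended the call for 9 of the 103 named genes that were tallied for each alternative. Quantile normalization gave 2346, centring on medians 1881, no filter 1638 and only the 5 arrays 1377. The array labelled EB6 shKBTBD8 replicate 2 in place also moved list counts. Then 11 tRNA synthetases rose (in place of 8) and 2 fell, and 8 arrestin-list members rose (in place of 6). Amino acid transporters gave 5 rises (in place of 6), replication genes 10 falls (in place of 8) and neural crest genes 4 falls (in place of 2).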
